A study of Mus musculus with 2 samples.

Results

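The genes described here are the 6 members of the chloride cotransport system that were chosen by symbol from the 32285 genes of the deposited matrices: the importer *Slc12a2*, the exporters *Slc12a4*, *Slc12a5* and *Slc12a7*, and the kinase genes *Wnk1* and *Stk39*. They were measured in Cajal-Retzius (CR) cells, the early-born reelin-secreting neurons of the hippocampal marginal zone, sorted from mice at P14 (postnatal day 14). The control library held the tdT-positive cells of 4 pooled *ΔNp73-Cre; Cic flox/+; tdT* mice (3 males and 1 female), and the knockout library those of 4 littermates of genotype *ΔNp73-Cre; Cic flox/flox; tdT*, also pooled (2 males and 2 females). Both groups therefore carried Cre, which the *ΔNp73* driver confines largely to the CR cell lineage, the tdT reporter and at least 1 floxed allele of *Cic*, the gene of the transcriptional repressor capicua. The control was heterozygous for the deletion. By protein staining at an age later than P14, the study found CIC lost from most, but not all, hippocampal CR cells of such knockout mice. With 1 library per genotype, no difference between genotypes had a replicate check. No test was run, and all intervals below are exact 95% intervals for counting error only.

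Chloride in neurons is set by cotransporters that couple it to cations. NKCC1 (*Slc12a2*) carries chloride into the cell with sodium and potassium, whereas the KCC proteins, among them KCC1 (*Slc12a4*), KCC2 (*Slc12a5*) and KCC4 (*Slc12a7*), carry it out with potassium. The kinase WNK1 activates SPAK (*Stk39*), which phosphorylates both sides, switching NKCC1 on and the KCC proteins off. KCC2 is the exporter of mature central neurons, its level climbs during postnatal development, and the balance of NKCC1 to KCC2 is known to decide whether GABA depolarizes or hyperpolarizes a neuron. CR cells are known for an immature, depolarizing response to GABA.

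CR cells were taken as barcodes with at least 2000 unique molecular identifiers (UMIs, 1 for each RNA molecule caught) and at least 5 *Reln* UMIs, which gave 1003 control and 390 knockout cells with medians of 6224 and 6664 UMIs per cell. No cell barcode was shared between the libraries. Each of the 9 CR cell markers on the list was detected in 25% or more of the cells of either library. Of the 12 lists for other cell types, none had more than 1 marker at that share (*Slc1a2*, *Cspg4* and *Rgs5* reached it). *Cic* itself stood at 58.9 CPM (counts scaled to 1000000 UMIs) in control cells and 51.3 CPM in knockout cells, a ratio of 0.871 (0.714 to 1.06). The sources used here do not state which part of *Cic* is floxed, so 3′ counts may not register the deletion. *Etv4* and *Etv5*, known targets of CIC repression, were 36.0-fold and 4.73-fold higher in the knockout, and 41.5% of knockout cells against 8.67% of control cells held a UMI of either. Cells with UMIs of Y-linked genes and none of *Xist* numbered 702 (control) and 194 (knockout), and cells of the opposite kind 227 and 176, so sex moved with genotype and within-sex values are given where they differ. The remaining cells, with UMIs of both kinds or of neither, were assigned to no sex. They are part of the values over all cells and not of those by sex.

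Because the study deleted a DNA-binding repressor, the promoters of the members were read for the octamer bound by CIC, in the spellings TGAATGAA, TGAATGGA, TCAATGAA and TCAATGGA on both strands. RefSeq promoters (GRCm38.p6, from 250 bases before to 50 bases after a transcript start) were at hand for 5 of the 6 members, 7 windows in all. None was at hand for *Slc12a2*, so its promoter was not searched. Only the 2 overlapping windows of *Slc12a7* held the octamer, at the same site, 206 bases before the more upstream of their 2 starts. Both windows lie inside the gene as annotated (73733094 to 73816754), so they do not cover its first annotated base. Of 32851 promoters, 3.84% held it. The upstream *Slc12a7* window is shown for that match (in capitals), and both *Slc12a5* windows are shown because *Slc12a5* is the member with the ratio farthest from 1 between the libraries. The absence of these letters from a window says nothing on binding elsewhere.
Slc12a7, chr13:73763410-73763709, plus strand: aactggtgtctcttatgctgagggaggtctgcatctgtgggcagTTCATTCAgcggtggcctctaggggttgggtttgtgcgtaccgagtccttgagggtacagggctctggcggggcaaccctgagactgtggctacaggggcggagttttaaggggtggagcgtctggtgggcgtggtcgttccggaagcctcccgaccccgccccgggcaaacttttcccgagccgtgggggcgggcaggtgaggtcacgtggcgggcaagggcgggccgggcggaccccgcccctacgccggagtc
Slc12a5, first start, chr2:164960596-164960895, plus strand: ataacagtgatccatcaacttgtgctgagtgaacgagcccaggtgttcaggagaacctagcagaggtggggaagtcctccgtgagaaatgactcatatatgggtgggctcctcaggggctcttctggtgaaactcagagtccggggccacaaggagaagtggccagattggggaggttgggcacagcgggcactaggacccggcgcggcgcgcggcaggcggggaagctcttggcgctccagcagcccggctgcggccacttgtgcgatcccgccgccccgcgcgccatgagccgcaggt
Slc12a5, second start, chr2:164967738-164968037, plus strand: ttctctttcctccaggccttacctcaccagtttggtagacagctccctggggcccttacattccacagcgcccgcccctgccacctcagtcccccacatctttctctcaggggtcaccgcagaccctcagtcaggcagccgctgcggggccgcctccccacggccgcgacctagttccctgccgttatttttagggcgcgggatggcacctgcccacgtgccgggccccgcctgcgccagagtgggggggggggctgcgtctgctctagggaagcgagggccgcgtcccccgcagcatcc

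On the GRCm38 build (GENCODE M21, where 99.6% of the deposited gene identifiers were found), *Slc12a2* (ENSMUSG00000024597) lies on the plus strand of chromosome 18 between 57878678 and 57946821. *Slc12a4* (ENSMUSG00000017765) lies on the minus strand of chromosome 8 between 105943590 and 105966097. *Slc12a5* (ENSMUSG00000017740) lies on the plus strand of chromosome 2 between 164960802 and 164999731, and *Stk39* (ENSMUSG00000027030) on the minus strand of the same chromosome between 68210445 and 68472268. *Slc12a7* (ENSMUSG00000017756) lies on the plus strand of chromosome 13 between 73733094 and 73816754, and *Wnk1* (ENSMUSG00000045962) on the minus strand of chromosome 6 between 119923969 and 120038672. The last 2254 bases of *Slc12a4* overlap the antisense gene *Gm16156*, which is also counted in the matrices. The sources do not say which strand was counted, so UMIs of that stretch could not be assigned with certainty. No other member overlaps a counted gene.

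Among the exporter members, the transcripts of KCC1 and KCC4, and not those of KCC2, were abundant in CR cells. No protein was measured. Levels are given as CPM, with mitochondrial (mt-) and ribosomal protein (Rpl, Rps, Mrp) genes left out of the total. Each 3′ UMI was taken as 1 molecule of any length, so levels of different genes are set side by side without scaling to length. The sources do not say whether introns were counted, and an effect of gene length on the order of members or on ratios between genes was not tested. In control cells, *Wnk1* was the highest member at 237 CPM (226 to 249). *Slc12a7* followed at 91.2 CPM (84.0 to 98.8) and *Slc12a4* at 90.4 CPM (83.3 to 98.0). Their intervals overlapped, so these neighbours could not be ordered. *Stk39* stood at 69.7 CPM (63.5 to 76.3), *Slc12a2* at 24.1 CPM (20.5 to 28.1) and *Slc12a5* at 5.00 CPM (3.44 to 7.02), each below its neighbour without overlap of the intervals. In knockout cells, the order was *Wnk1* at 203 CPM (187 to 221), *Slc12a7* at 106 CPM (94.5 to 119), *Stk39* at 79.9 CPM (69.7 to 91.2), *Slc12a4* at 75.9 CPM (66.0 to 86.9), *Slc12a2* at 28.6 CPM (22.6 to 35.6) and *Slc12a5* at 10.1 CPM (6.73 to 14.6). There, only *Stk39* and *Slc12a4* overlapped with each other.

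The KCC2 transcript, *Slc12a5*, was thus the least abundant of the members in both libraries, with 33 UMIs over all control cells and 28 over all knockout cells. Only 31 control cells (3.09%, 2.11 to 4.36) and 23 knockout cells (5.90%, 3.77 to 8.72) held a *Slc12a5* UMI, and none held more than 2. *Slc12a2* was seen in 124 control cells (12.4%, 10.4 to 14.6) and 67 knockout cells (17.2%, 13.6 to 21.3). A single control cell held 10 of the 159 control *Slc12a2* UMIs, and the knockout maximum was 4. *Slc12a4* had a UMI in 39.5% of control and 37.7% of knockout cells, *Slc12a7* in 41.6% and 47.2%, *Stk39* in 30.5% and 36.4% and *Wnk1* in 69.3% and 64.1%. After each cell was thinned to 2000 UMIs, the shares were 4.09% and 6.41% for *Slc12a2* and 1.10% and 3.08% for *Slc12a5*. Cells with both transcripts were few: 6 of 1003 control cells and 1 of 390 knockout cells.

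Importer transcripts were few beside those of the 3 exporters described here. Per summed *Slc12a4*, *Slc12a5* and *Slc12a7* UMI, control cells held 0.129 *Slc12a2* UMIs (0.109 to 0.152), from 159 against 1232 UMIs. Knockout cells held 0.148 (0.116 to 0.188), from 79 against 532 UMIs, and the intervals overlapped. Of the cells with a *Slc12a2* UMI, 73.4% (control) and 79.1% (knockout) also held a UMI of at least 1 of these exporters, against 66.1% and 69.2% of all cells. At 2000 UMIs per cell, these shares were 39.0% and 36% against 30.3% and 35.9%.

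Barcodes of 20 to 100 UMIs, which hold free RNA rather than cells, numbered 29040 (control, median 89 UMIs) and 75813 (knockout, median 44 UMIs). In them, *Slc12a2* stood at 13.8 CPM (control) and 7.57 CPM (knockout), so cells were 1.75-fold (1.18 to 2.68) and 3.77-fold (2.35 to 6.29) above them. *Slc12a5* stood at 3.67 CPM and 1.97 CPM in the droplets, from 8 and 6 UMIs. Control cells were 1.36-fold above the droplets for *Slc12a5*, with an interval that held 1 (0.617 to 3.41), and knockout cells 5.13-fold (2.08 to 15.1). The other 4 members were between 1.71-fold and 3.43-fold higher in control cells than in droplets, and between 1.495-fold and 3.80-fold in knockout cells. The mean droplet of this window held 86.3 UMIs in the control and 45.5 in the knockout. If each cell held as much free RNA as that, the largest share of any member's UMIs would be 0.837% in control cells (*Slc12a5*). In knockout cells, it would be 0.378% (*Wnk1*). The window ends at 100 UMIs, and the shares would be larger if cells held more free RNA than the mean droplet. The control median of 89 UMIs lay near that end, and the knockout median of 44 UMIs did not. The window may thus not hold the same range of free RNA barcodes in both libraries. *Slc12a5* had a UMI in 0.0275% of control droplets and 0.00660% of knockout droplets.

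**Figure D1:**
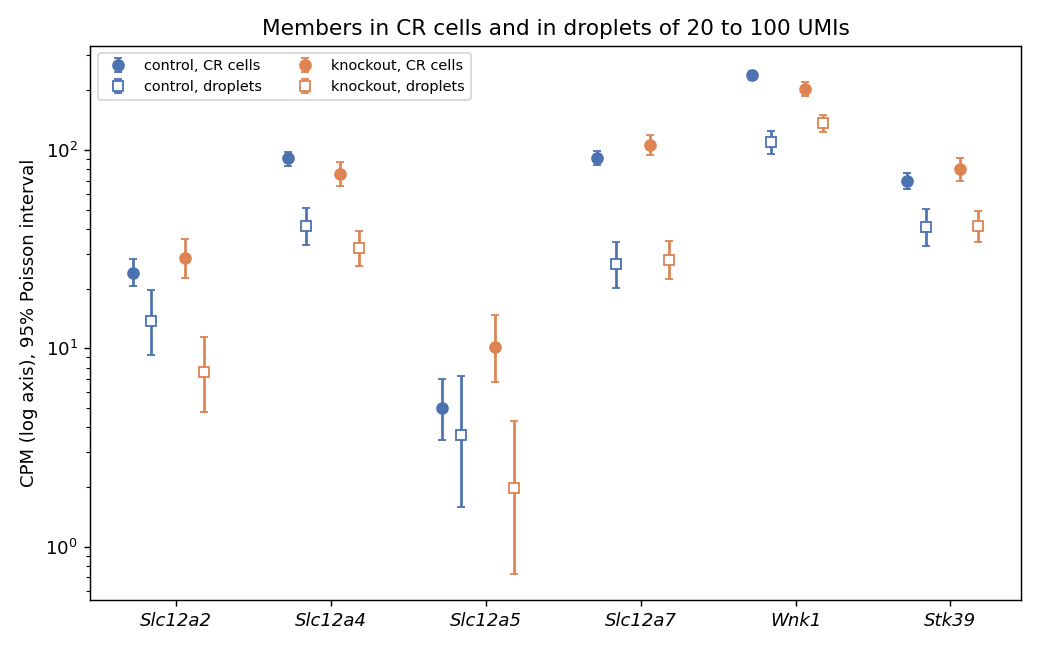
CPM (log axis) of the 6 members in CR cells (filled circles) and in droplets of 20 to 100 UMIs (open squares) of the control (blue) and knockout (orange) libraries, with 95% Poisson intervals as bars. *Wnk1* is highest and *Slc12a5* lowest in both libraries, and only control *Slc12a5* has intervals for cells and droplets that overlap.

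The comparison of the libraries asked whether loss of CIC went along with other levels of these transcripts. No member with at least 100 UMIs over both libraries differed by 1.5-fold or more: 0 of 5, where 4.4% of all 9442 genes with as many UMIs did so. The median log2 ratio of these 5 members was 0.20, the value of *Stk39*, against 0.01 over all genes. Those of *Slc12a4* and *Wnk1* were negative, at -0.25 and -0.22. The importer *Slc12a2*, at 24.1 and 28.6 CPM, had a knockout to control ratio of 1.19 (0.894 to 1.56). The exporter *Slc12a7*, at 91.2 and 106 CPM, had a ratio of 1.17 (1.01 to 1.34), and *Slc12a4*, at 90.4 and 75.9 CPM, one of 0.840 (0.714 to 0.984). The 2 exporters of like abundance lay on opposite sides of 1, each with an interval that left out 1. *Reln*, with a ratio of 0.963 (0.948 to 0.978), had such an interval too. The share of all genes with one is not given here. Of the kinase genes, *Wnk1* had a ratio of 0.857 (0.776 to 0.944) and *Stk39* one of 1.15 (0.972 to 1.35).

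*Slc12a5* was the only member with a ratio beyond 1.5-fold, but its 61 UMIs in all were fewer than asked of a call. It stood at 5.00 CPM in control cells and 10.1 CPM in knockout cells, a ratio of 2.03 (1.18 to 3.46). The share of all genes with so few UMIs that lay beyond 1.5-fold is not given here. Within cells of one sex, the *Slc12a5* ratio was 1.86 (0.864 to 3.82) in male and 1.56 (0.604 to 4.20) in female cells, both with intervals that held 1. The ratio of 2.03 also holds the cells assigned to no sex, so the lower values by sex do not show an effect of sex. In the knockout cells with a UMI of *Etv4* or *Etv5*, *Slc12a5* had 8 UMIs and a ratio of 1.30 (0.520 to 2.88) to the control. The knockout cells without such a UMI held the other 20, so that within the knockout library the *Etv4* or *Etv5* positive cells stood at 6.51 CPM and the negative cells at 13.0 CPM (ratio 0.501, 0.191 to 1.19). The positive cells were deeper, with a median of 7266 UMIs against 6210. The other 5 members had ratios between 0.804 and 1.13 in that split, and each interval held 1.

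*Slc12a7* and *Stk39* lay on opposite sides of 1 in male and female cells. *Slc12a7* had a knockout to control ratio of 1.27 in male cells (1.06 to 1.53) and 0.941 in female cells (0.733 to 1.21). *Stk39* had one of 1.27 in male cells (1.02 to 1.57) and 0.918 in female cells (0.690 to 1.22). For *Slc12a4*, the values were 0.783 in male and 0.775 in female cells, for *Wnk1* 0.855 and 0.884, and for *Slc12a2* 1.18 and 1.21. These 3 members lay on the same side of 1 in both sexes. In male cells, the intervals of *Slc12a4* (0.625 to 0.974) and *Wnk1* (0.748 to 0.973) left out 1. In female cells, they held 1 (0.593 to 1.01 and 0.747 to 1.05). For *Slc12a2*, the interval held 1 in male (0.794 to 1.71) and in female cells (0.730 to 1.99). The difference between the sexes was not tested.

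Of 23 other genes of chloride and cation transport, listed by role, 17 had at least 100 UMIs. Among these, 1 was at least 1.5-fold higher in the knockout and 0 were lower by as much, where 4.4% of all 9442 genes were past 1.5-fold either way. The median ratio was 1.01 (range 0.819 to 1.67). The gene past the threshold was *Neto2*, which encodes an auxiliary protein that binds KCC2. It stood at 11.7 CPM in control cells (77 UMIs) and 19.5 CPM in knockout cells (54 UMIs), a ratio of 1.67 (1.16 to 2.40). Its ratio within each sex is not given here. *Slc4a2*, which encodes a chloride and bicarbonate exchanger, had a ratio of 1.78 (1.11 to 2.81) on 82 UMIs, under the minimum. The other listed genes under the minimum were *Slc12a8* (1.12), *Slc12a1* (0.852), *Clcn2* (0.605), *Slc12a3* (0.448) and *Wnk4* (0.184). Each of their intervals held 1. *Wnk3* and *Wnk2*, the other neuronal WNK kinases, had ratios of 0.819 (0.630 to 1.05) and 1.12 (0.978 to 1.29).

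**Figure D2:**
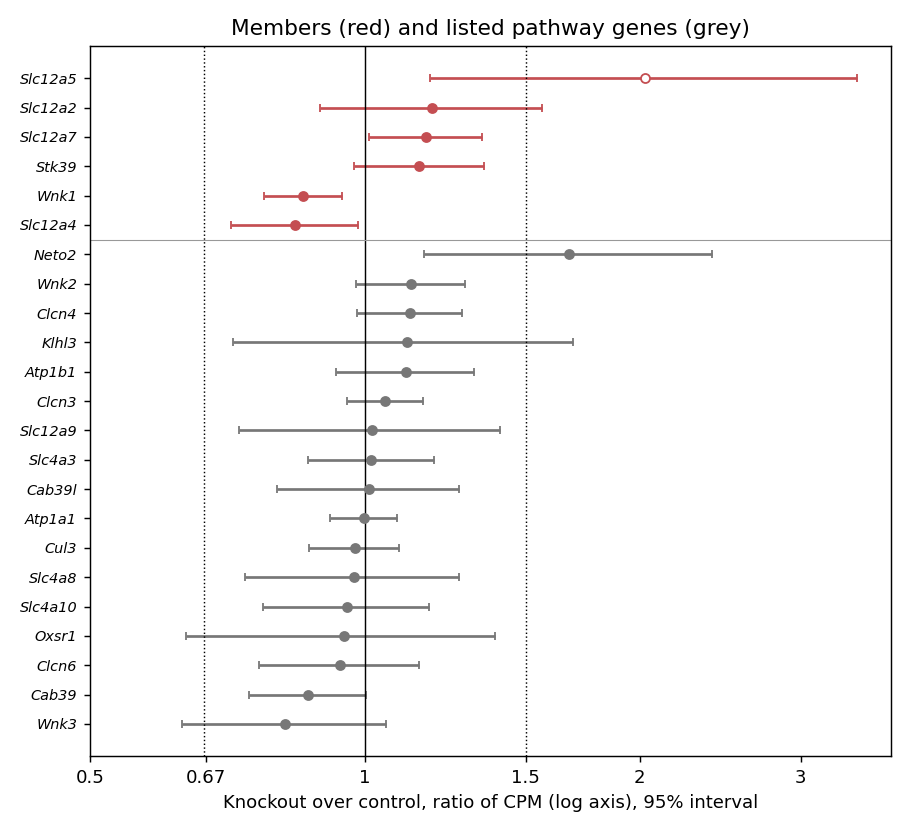
Ratio of CPM, knockout over control (log axis), with 95% intervals, for the 6 members (red, above the line) and the 17 listed transport genes with at least 100 UMIs (grey). The open circle marks *Slc12a5*, with 61 UMIs, and the dotted lines mark 1.5-fold. *Neto2* at 1.67 and *Slc12a5* at 2.03 are the points beyond them.

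The ratio of importer to neuronal exporter transcripts was above 1 in both libraries. In control cells, 159 *Slc12a2* UMIs stood against 33 *Slc12a5* UMIs, a ratio of 4.82 (3.30 to 7.24). In knockout cells, 79 stood against 28, a ratio of 2.82 (1.81 to 4.51). The odds ratio of the knockout to the control counts, by its conditional estimate, was 0.587, with an interval that held 1 (0.319 to 1.08). Droplets of 20 to 100 UMIs gave ratios of 3.75 (1.68 to 9.47, control) and 3.83 (1.52 to 11.5, knockout), whose intervals overlapped those of the cells.

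Cells were next split by detection of *Cck*, the gene of the neuropeptide cholecystokinin, of *Grik1*, a kainate receptor subunit gene, and of *Chst8* or *Alkal2*, which encode a sulfotransferase and a receptor ligand. The study used the first pair as markers of CR cell clusters, and the last pair was chosen with earlier results of these data known. A cell with at least 1 UMI of the marker was called positive. *Cck* positive cells numbered 324 (control) and 110 (knockout), *Grik1* positive cells 194 and 70, and *Chst8* or *Alkal2* positive cells 232 and 91. The classes overlap, and 387 control and 173 knockout cells belonged to none. Positive cells were deeper than negative ones: the medians were 6397 against 6148 UMIs for *Cck* in the control, and 7869 against 6361 UMIs for *Chst8* or *Alkal2* in the knockout, the widest gap. Cells of 1 library are not replicates, and each library is therefore given on its own.

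Between *Cck* positive and negative cells, *Slc12a2* had a ratio below 1 in the knockout, and one in the control whose interval held 1. In the control, it stood at 28.4 CPM in positive and 21.8 CPM in negative cells, a ratio of 1.30 (0.935 to 1.81). In the knockout, it stood at 12.6 CPM in positive cells, from 10 UMIs in 10 cells, and at 35.0 CPM in negative cells, from 69 UMIs, a ratio of 0.359 (0.165 to 0.701) on fewer than the 100 UMIs asked of a call. The knockout ratio was 0.335 in male and 0.413 in female cells. When the cells were thinned to 2000 UMIs before they were classed, both ratios lay below 1, at 0.809 (control, 7 UMIs in positive cells) and 0.236 (knockout, 1 UMI). *Slc12a5* had the opposite order, at 3.93 against 5.56 CPM in control cells (ratio 0.707, 0.289 to 1.58) and 16.3 against 7.61 CPM in knockout cells (ratio 2.15, 0.940 to 4.84). Both intervals held 1, and in female knockout cells the ratio was 0.997. The importer to exporter ratio was 7.22 (3.58 to 16.5) in control *Cck* positive cells and 0.769 (0.302 to 1.90) in knockout *Cck* positive cells, the lowest value of any group of cells. In *Cck* negative cells, it was 3.92 (2.48 to 6.41, control) and 4.60 (2.61 to 8.66, knockout). Of the members with at least 100 UMIs, 0 of 5 in control cells and 0 of 4 in knockout cells were past 1.5-fold between *Cck* positive and negative cells, against 5.07% and 8.27% of all genes.

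Between the libraries within *Cck* positive cells, *Slc12a2* had a knockout to control ratio of 0.442 (0.203 to 0.867) from 10 and 65 UMIs. *Slc12a5* had one of 4.15 (1.64 to 11.0) from 13 and 9 UMIs. The other 4 members had ratios between 0.957 and 1.12 there, with intervals that held 1. Within *Grik1* positive cells, *Slc12a2* had a ratio of 2.01 (1.02 to 3.89) from 18 and 23 UMIs, and *Slc12a5* one of 3.85 (1.22 to 13.2) from 9 and 6 UMIs. Within *Chst8* or *Alkal2* positive cells, the values were 1.03 (0.581 to 1.77) and 1.44 (0.509 to 3.82). All *Slc12a2* and *Slc12a5* ratios within these classes rest on fewer than the 100 UMIs asked of a call. The share of all genes past the fold was not computed within these classes.

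**Figure D3:**
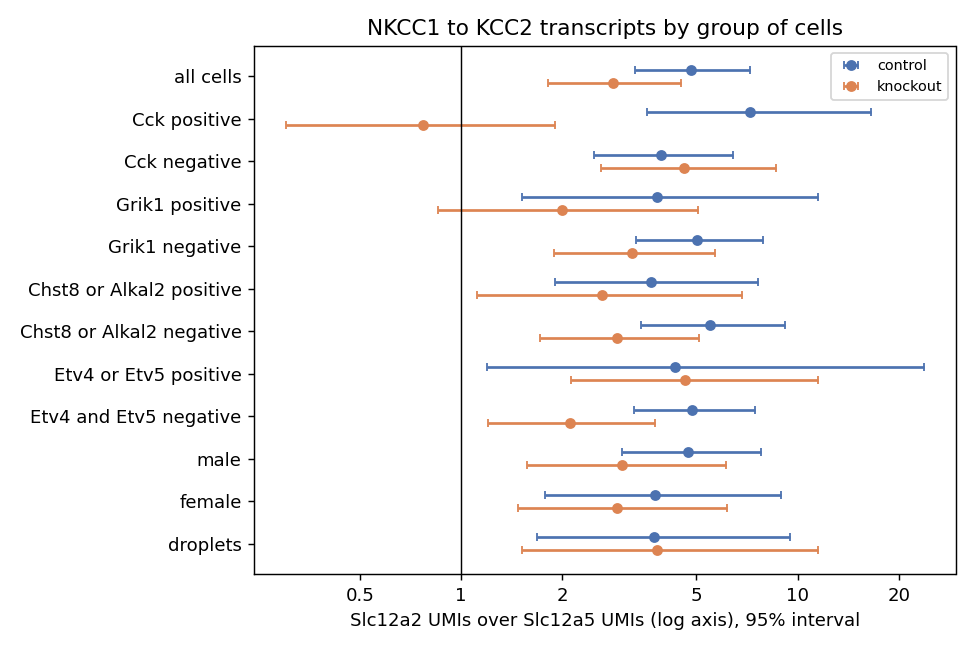
*Slc12a2* UMIs over *Slc12a5* UMIs (log axis) with 95% intervals, in all CR cells, in each class of cells, by sex and in droplets, for the control (blue) and knockout (orange) libraries. The ratio lies at 0.769 in knockout *Cck* positive cells and at 2.00 or above in every other group plotted.

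*Grik1* positive cells held less KCC1 transcript in the control. *Slc12a4* stood at 54.4 CPM in positive and 99.9 CPM in negative control cells, a ratio of 0.545 (0.422 to 0.695). In the knockout, it stood at 59.7 and 79.8 CPM, a ratio of 0.747 with an interval that held 1 (0.496 to 1.09). *Slc12a2* stood at 16.7 and 26.0 CPM in control cells (ratio 0.641, 0.393 to 1.00, which just held 1), and at 33.6 and 27.4 CPM in knockout cells (ratio 1.23, 0.682 to 2.10). When the cells were thinned to 2000 UMIs before they were classed, the *Slc12a2* ratio was 1.13 (control) and 2.13 (knockout), from 5 and 4 UMIs in positive cells, whereas that of *Slc12a4* in the control was 0.475. Past 1.5-fold were 2 of 5 members in the control (*Slc12a4* and *Slc12a2*, both lower) and 0 of 4 in the knockout, against 6.83% and 7.94% of all genes. *Wnk1* stood at 263 against 230 CPM in control cells (ratio 1.14, 1.01 to 1.29) and at 231 against 196 CPM in knockout cells (ratio 1.18, 0.956 to 1.44). *Slc12a7* had ratios of 1.00 in both libraries. After thinning, its control ratio was 0.633, from 11 UMIs in positive cells, and the *Wnk1* ratio in the knockout was 0.797, from 10.

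In *Chst8* or *Alkal2* positive cells, the interval left out 1 only for *Wnk1* in the knockout, above 1, and for *Stk39* in the control, below 1. In the other library, the interval of each held 1. The share of all genes with an interval that left out 1 is not given here. Of the members with at least 100 UMIs, none was past 1.5-fold: 0 of 5 in control cells and 0 of 4 in knockout cells, against 6.42% and 8.08% of all genes. *Wnk1* stood at 249 against 186 CPM in the knockout (ratio 1.34, 1.12 to 1.60) and at 244 against 235 CPM in the control (ratio 1.04, 0.925 to 1.17). The highest *Wnk1* count in a knockout positive cell was 19 of 189 UMIs, against a highest count of 9 in the negative cells. *Stk39* stood at 56.9 against 73.9 CPM in control cells (ratio 0.770, 0.607 to 0.969) and at 77.8 against 80.7 CPM in knockout cells (ratio 0.963, 0.703 to 1.31). After thinning, the *Stk39* ratios were 1.00 (control) and 0.524 (knockout), from 15 and 5 UMIs in positive cells. *Slc12a5* had ratios of 1.74 (0.779 to 3.70) and 1.06 (0.403 to 2.51), from 12 and 8 UMIs in positive cells.

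**Figure D4:**
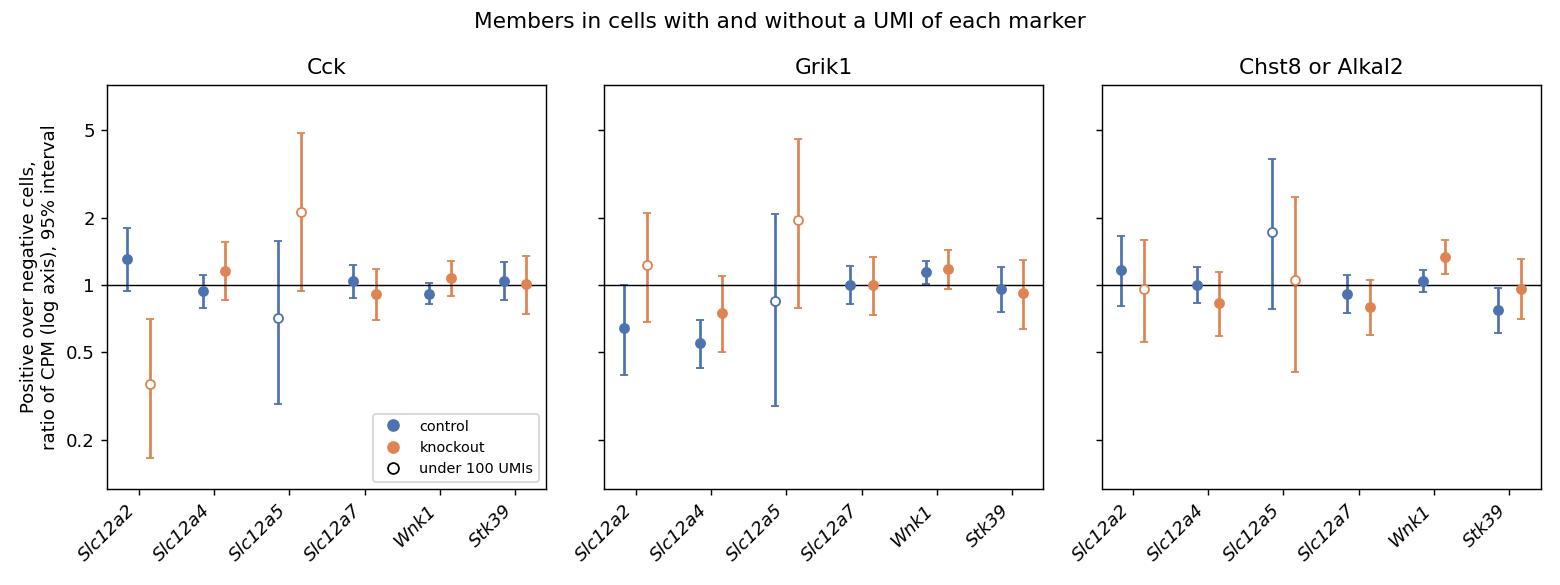
Ratio of CPM between marker positive and negative cells (log axis) with 95% intervals, for each member in the control (blue) and knockout (orange). Open circles mark members with under 100 UMIs in that library. *Slc12a2* in the *Cck* panel lies at 1.30 (control) and 0.359 (knockout), and *Slc12a4* in the *Grik1* panel at 0.545 and 0.747.

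Among the same cells, 78 control and 29 knockout cells were high in nuclear genes of oxidative phosphorylation. These genes held at least 2% of the cell's UMIs outside mt-, Rpl, Rps and Mrp genes. The median depths of these cells, over all UMIs, were 13555.5 (control) and 14508 (knockout). In them, *Slc12a4* was at 49.3 CPM against 96.9 CPM in the other control cells (ratio 0.509, 0.366 to 0.693). It was at 60.8 against 78.4 CPM in the knockout (ratio 0.775), where the interval held 1. *Slc12a4* was not the only member lower in these cells. *Slc12a7* had ratios of 0.669 (control) and 0.683 (knockout). Both intervals left out 1, in the knockout only just (upper limit 0.998). *Wnk1* had a ratio of 0.743 in the control, where the interval left out 1, and 0.841 in the knockout, where it held 1. The intervals of *Slc12a2*, *Slc12a5* and *Stk39* held 1 in both libraries. Past 1.5-fold were 1 of 5 members in control cells and 0 of 4 in knockout cells, where 53.2% and 49.8% of all genes were. Without these cells, the knockout to control ratio of *Slc12a2* was 1.27 and that of *Slc12a4* 0.810.

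Likeness to the importer and to KCC2 was read over 6 exclusive classes of control cells (*Cck* only, *Grik1* only, *Chst8* or *Alkal2* only, more than 1 of these, none, and the cells high in oxidative phosphorylation genes), among 2678 genes with at least 500 UMIs. The genes most like *Slc12a2* by Pearson's r of log2(CPM + 1) were *Htra1* (0.93), *Pdxdc1* (0.91) and *Ubxn4* (0.90). Over the same classes of knockout cells, their r was -0.89, -0.34 and -0.15. Those most like *Slc12a5* were *Samd12* (1.00), *Ext1* (0.99) and *Picalm* (0.98), with 0.38, -0.05 and 0.63 in the knockout. The 6 points share 1 library, and each rests on 1 to 13 *Slc12a5* UMIs in the control. The r values are a description only. The 6 genes were chosen for their high r in the control, so the lower r in the knockout follows from that choice and is no result.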

How the data were processed

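Per the labels and methods, cells of dissociated hippocampi were sorted as DAPI-negative and tdT-positive and made into 10x 3′ libraries. The authors deposited raw UMI counts for every gene in every barcode, without normalization or cell calling. The matrix header names Cell Ranger 4, the methods another version with mm10, and the submitters' processing notes version 8.0.1 with mm39. Counting of introns and strand is not given in the sources used here. The 2 libraries held 16336796 and 6777071 UMIs, of which 6601724 and 2765943 lay in the cells (mitochondrial and Rpl, Rps and Mrp genes left out) and were scaled to 1000000 (CPM).

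Counts were summed over cells per library with numpy 2.4.6 and scipy 1.17.1 under Python 3.11.15. Ratios carry exact intervals for 2 Poisson counts, and shares exact binomial (Clopper-Pearson) intervals, at 95%. PCR duplicates are collapsed by the UMI. No p-value was computed, as cells of 1 library are no replicates. A gene was called past the fold at 1.5-fold with at least 100 UMIs over both groups compared. Doublets were kept, and removal by Scrublet score (scanpy 1.11.5) was an alternative. Clustering was not repeated. The members and lists were chosen with earlier results of these data known. All 6 members are named. Of the 23 listed transport genes, those past the fold and those needed to state a level are named, and for likeness the 3 genes with the highest r. *Slc4a2*, *Wnk2* and *Wnk3* were chosen after their values were seen, and the other listed genes under 100 UMIs are named beside *Slc4a2*. Some listed genes are not reported here and are left out of the counts. The interval was tested on simulated data. Alternatives covered thresholds on UMIs and *Reln*, scaling, thinning, quality limits, doublets, free RNA, sex and the definition of classes.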

Additional observations from a re-analysis of the deposited data

Results flagged for a closer look

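Between *Cck* positive and negative cells, *Slc12a2* had a ratio of 1.30 (0.935 to 1.81) among control cells, with an interval that held 1. Among knockout cells, the ratio was 0.359 (0.165 to 0.701). The difference between the libraries was not tested, since each genotype had 1 library. Over the exclusive classes used for likeness, control cells positive for *Cck* only stood at 26.4 CPM (18.0 to 37.2). Control cells of no class stood at 27.1 CPM (20.5 to 35.1). In the knockout, the values were 12.2 CPM (3.95 to 28.4, from 5 UMIs) and 36.5 CPM (25.7 to 50.3). In the control, the cell with 10 *Slc12a2* UMIs was *Cck* negative, and without it the control ratio was 1.46 (1.04 to 2.04). With cells thinned to 2000 UMIs, the control ratio was 0.809 (0.305 to 1.83), on the same side of 1 as the knockout ratio, from 7 UMIs in positive cells. The knockout ratio rests on 10 UMIs in positive cells, and without the knockout cell with most *Slc12a2* UMIs it was 0.378.

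Barcodes with at least 2000 UMIs and under 5 *Reln* UMIs, 8 in the control and 16 in the knockout, were left out of the comparisons, and members had signal in them. The 5 listed ependymal or choroid markers summed to 99039.5 CPM in control and 66078.6 CPM in knockout barcodes, against 4.24 and 5.06 CPM in the CR cells. Of these markers, 4 were in at least 25% of the control barcodes and 2 (*Ttr* and *Folr1*) in at least 25% of the knockout barcodes. Of the 7 astrocyte markers, 2 and 4 reached that share, with sums of 1088 and 2554 CPM. Mural cell markers summed to 1203 CPM in the knockout barcodes, where none reached that share, and had 0 UMIs in the control barcodes. The left-out barcodes were summed per library and were not assigned to 1 cell type. *Stk39*, the SPAK gene, stood at 626 CPM in the control barcodes (23 UMIs) and 295 CPM in the knockout barcodes (14 UMIs), which was 8.98-fold (5.64 to 13.6) and 3.70-fold (1.99 to 6.34) the level of CR cells. *Slc12a2* stood at 211 CPM in the knockout barcodes (10 UMIs), 7.39-fold (3.41 to 14.3) the level of CR cells, and had 2 UMIs in the control barcodes. A *Stk39* UMI was found in 4 control and 7 knockout barcodes, and a *Slc12a2* UMI in 6 knockout barcodes. *Slc12a5* had 0 UMIs in both, with exact upper limits of 100.4 CPM (control) and 77.9 CPM (knockout).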

How the results depend on the processing

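No paired analysis was possible because each genotype had 1 library, and for the same reason no replicate could be left out. Over 96 recomputed member ratios between the libraries, 93 stayed within the interval of the reported value, and none of the 5 members with at least 100 UMIs reached 1.5-fold. The exceptions were *Slc12a7* in female cells (0.941) and with cells thinned to 2000 UMIs (1.37), and *Stk39* in female cells (0.918). The *Slc12a5* ratio ranged from 1.30 to 3.05. All 28 recomputed *Slc12a2* to *Slc12a5* ratios stayed above 1 (3.78 to 5.23 for control and 1.92 to 3.12 for knockout cells). Of 160 recomputed ratios between positive and negative cells, 148 stayed within the interval of the reported value and 12 did not, and 36 fell on the other side of 1, 9 of them outside that interval. Outside it after thinning were *Slc12a2* by *Cck* in the control (0.809), *Slc12a7* and *Stk39* by *Grik1* in the control (0.633 and 1.23), *Stk39* by *Chst8* or *Alkal2* (1.00 control, 0.524 knockout), *Slc12a2* and *Wnk1* by *Grik1* in the knockout (2.13 and 0.797), *Wnk1* by *Cck* in the knockout (1.30, and 0.867 for cells of 1 class only against none) and *Slc12a7* by *Chst8* or *Alkal2* in the knockout (1.13). Among ratios past 1.5-fold in the reported values, 4 fell on the other side of 1: *Slc12a2* by *Grik1* in the control after thinning (1.13), *Slc12a5* by *Chst8* or *Alkal2* in the control with positive cells from 2 UMIs (0.288), *Slc12a5* by *Grik1* in the knockout after thinning (0.930) and *Slc12a5* by *Cck* in female knockout cells (0.997). In the 2 of these that were thinned, 5 and 1 UMIs were left in positive cells, and the cause of the others was not tested. The splits by sex within the *Cck* classes and the removal of the cell with most UMIs of a gene were chosen after seeing the data. The share of all genes past the fold between libraries, 4.4%, was 1.14% with at least 500 UMIs and 0.731% at 2-fold. For the 3 marker classes it was 1.98% to 4.39% and 0.843% to 1.67%, and for cells high in oxidative phosphorylation genes 27.9% and 24.5% at 2-fold. Depth limits *Slc12a5* most, with 33 and 28 UMIs.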
